A study of Mus musculus with 28 samples.

Results

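Indirect pathway spiny neuron genes are described here in 4 mouse brain regions. They are 5 genes known to mark the striatal spiny neurons of the indirect pathway, namely *Drd2*, *Adora2a*, *Gpr6*, *Penk* and *Sp9*. They were chosen by name from textbook knowledge of these neurons and not by a threshold on the counts. Earlier results of these data were known when they were chosen. All 5 of the 29878 genes listed were found, and 5 of 5 passed the filter on low counts, which kept 14979 genes.

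The study compared mice lacking *Hdc*, the enzyme that makes histamine, with heterozygous (het) and wild-type (WT) mice, as a model of tic disorders. RNA-seq was run on dissected dorsal striatum, ventral striatum, hypothalamus and motor cortex of male mice aged 2 to 3 months on a C57Bl/6 background, in 28 libraries. WT, het and KO labels were carried by 2, 3 and 2 dorsal striatum libraries, by 3, 3 and 2 libraries in ventral striatum as in hypothalamus, and by 1, 2 and 2 in motor cortex. The deletion of *Hdc* is constitutive, the tissue is bulk tissue, and the cDNA was amplified from small amounts of RNA. Libraries held between 3536802 and 5150280 counts on genes, with a median of 4549063 in dorsal striatum, 3990344 in ventral striatum, 4649945 in hypothalamus and 4269818 in motor cortex.

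*Hdc* itself was not lower under the KO label in every region. In dorsal striatum it had 3 and 0 counts in the WT libraries, 33, 17 and 21 in the het libraries and 40 and 31 in the libraries labelled KO. In motor cortex it had 0 counts in the WT library and 45 and 29 in the libraries labelled KO, and in ventral striatum 1, 6 and 0 against 49 and 51. In hypothalamus the counts were 79, 111 and 94 in WT and 54 and 66 under the KO label. KO over WT there was -0.40 ± 0.21 on the log2 scale and was not called (edgeR adjusted p = 0.840). The paper states that *Hdc* transcript levels were altered. Outside the hypothalamus the count was higher under the KO label than in WT, and het libraries were also called above WT. Where along the gene these reads lie was not analysed here. For this reason the groups are called libraries labelled KO throughout.

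The labelled regions were checked against their markers. The summed level of 14 genes shared by all spiny neurons was between 12708 and 17354 CPM (counts scaled to the effective library size) in the dorsal and between 3481 and 6994 CPM in the ventral striatum libraries. It was between 879 and 1019 CPM in the hypothalamus and between 1241 and 1326 CPM in the motor cortex. *Hcrt*, the orexin gene of the lateral hypothalamus, lay between 44.0 and 76.9 CPM in the hypothalamus libraries and at 0 in every dorsal striatum and motor cortex library. *Slc17a7*, the vesicular glutamate transporter of cortical excitatory neurons, lay between 1041 and 1185 CPM in motor cortex. It also reached 179 CPM in dorsal striatum KO 7, 56.4 CPM in dorsal striatum WT 2 and 198 CPM in hypothalamus KO 8, where the other libraries of these regions lay at or under 44.8 CPM. These libraries stand apart from their groups, and the comparison of dorsal with ventral striatum is given with and without WT 2 and KO 7.

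Spiny projection neurons make up most neurons of the striatum and fall into a direct and an indirect pathway. Neurons of the indirect pathway project to the external globus pallidus, carry D2 dopamine and A2A adenosine receptors, and release enkephalin besides GABA. Dopamine acting on D2 receptors lowers cyclic AMP in these cells, while adenosine acting on A2A receptors raises it.

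*Drd2* encodes the D2 dopamine receptor, *Adora2a* the A2A adenosine receptor and *Gpr6* a constitutively active receptor that raises cyclic AMP. *Penk* encodes the precursor of the enkephalins. *Sp9* encodes a zinc finger transcription factor that indirect pathway neurons need during development. On GRCm38 with GENCODE M21, *Drd2* lies on chromosome 9 at chr9:49340627-49408177, *Adora2a* at chr10:75316877-75334784 and *Gpr6* at chr10:41069977-41072285. *Penk* lies at chr4:4133531-4138819 and *Sp9* at chr2:73271925-73284706. The exons of *Penk* share 233 of 1634 bases with *A830012C17Rik* on the opposite strand, and those of *Sp9* share 270 of 5044 bases with *Cir1* on the opposite strand. Whether the counting used strand is not given in the sources used here, so reads in these bases cannot be assigned with certainty. No count of *A830012C17Rik* was used here.

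Promoters are shown because all 5 members were higher in dorsal than in ventral striatum, so that a reader can compare the bases around their starts. Those of *Penk* and *Adora2a* were not used here. They are the RefSeq sequences on GRCm38.p6, from 250 bases before to 50 bases after the start used in the promoter set, written 5′ to 3′ on the strand of the gene. The *Drd2* promoter is chr9:49340153-49340452 on the plus strand, the *Gpr6* promoter chr10:41072241-41072540 on the minus strand and the *Sp9* promoter chr2:73271676-73271975 on the plus strand. For *Drd2* the start used there is neither the GENCODE nor the RefSeq gene start, and its window ends before the GENCODE gene begins. The *Gpr6* and *Sp9* windows include the GENCODE gene start, but for *Gpr6* the start used there is not that base. Capitals mark matches, on either strand, to 3 motifs: the cyclic AMP response element TGACGTCA, the GC box GGGCGG with its reverse CCGCCC, and the CCAAT box CCAAT with its reverse ATTGG.
Drd2 promoter: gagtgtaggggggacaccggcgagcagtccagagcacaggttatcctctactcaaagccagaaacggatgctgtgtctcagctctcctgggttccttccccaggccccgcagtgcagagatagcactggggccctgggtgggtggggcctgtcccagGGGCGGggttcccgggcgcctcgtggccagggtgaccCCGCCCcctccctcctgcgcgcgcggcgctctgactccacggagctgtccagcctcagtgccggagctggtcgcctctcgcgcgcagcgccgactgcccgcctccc
Gpr6 promoter: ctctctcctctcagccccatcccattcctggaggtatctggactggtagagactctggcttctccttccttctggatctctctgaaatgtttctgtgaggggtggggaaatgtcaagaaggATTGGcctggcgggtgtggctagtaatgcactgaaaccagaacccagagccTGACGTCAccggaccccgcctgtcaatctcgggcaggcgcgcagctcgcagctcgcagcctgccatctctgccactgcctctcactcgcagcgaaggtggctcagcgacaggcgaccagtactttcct
Sp9 promoter: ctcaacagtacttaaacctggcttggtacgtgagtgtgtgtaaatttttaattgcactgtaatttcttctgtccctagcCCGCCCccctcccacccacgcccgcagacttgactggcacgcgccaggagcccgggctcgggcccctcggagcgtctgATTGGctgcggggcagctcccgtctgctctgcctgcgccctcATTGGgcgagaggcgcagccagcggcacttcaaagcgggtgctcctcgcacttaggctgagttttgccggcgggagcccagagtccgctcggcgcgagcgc

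The *Gpr6* promoter held 1 complete cyclic AMP response element, which begins 78 bases before the start, and 1 CCAAT box. The *Drd2* promoter held 2 GC boxes and was 70.3% G and C. The *Sp9* promoter held 1 GC box and 2 CCAAT boxes. Over all 32851 promoters of the same length, 1.79% held the cyclic AMP response element, 35.7% the GC box and 37.4% the CCAAT box. No motif overlapped another in these windows. A match describes the letters only and shows no binding.

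*Drd2* was highest in the dorsal striatum, where the lowest, median and highest of 7 libraries were 502, 579.9 and 735 CPM. In the ventral striatum its 8 libraries had a lowest, median and highest level of 112, 188 and 233 CPM. The hypothalamus followed with 23.3, 33.4 and 45.8 CPM over 8 libraries, and the 5 motor cortex libraries lay at 1.29, 1.69, 1.79, 2.43 and 2.64 CPM. No *Drd2* library of a region reached the range of the next region in this order. CPM here are counts scaled by the TMM factors of edgeR.

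*Adora2a* was counted in dorsal striatum at a lowest, median and highest level of 311, 399 and 486 CPM, and in ventral striatum at 86.0, 152 and 206 CPM. In the other regions it was near the limit of detection. The 8 hypothalamus libraries held between 2 and 10 counts (0.371 to 1.95 CPM) and the 5 motor cortex libraries between 6 and 14 counts (1.34 to 3.60 CPM). The ranges of hypothalamus and motor cortex overlapped, whereas both striatal ranges stood clear of them and of each other.

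*Gpr6* had a lowest, median and highest level of 50.1, 67.1 and 79.7 CPM in dorsal striatum and of 17.0, 33.6 and 46.6 CPM in ventral striatum. In hypothalamus it was between 1 and 15 counts per library, with a median of 2.00 CPM. In motor cortex it had 0, 2, 3, 2 and 3 counts. The highest ventral library stayed below the lowest dorsal one, and the hypothalamus and motor cortex ranges overlapped.

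*Penk* had lowest, median and highest levels of 1501, 1857 and 2058 CPM in dorsal striatum and 599, 1023 and 1385 CPM in ventral striatum. The corresponding levels were 41.3, 57.9 and 66.5 CPM in hypothalamus, while the motor cortex libraries lay at 18.7, 20.1, 21.9, 33.4 and 33.6 CPM. As for *Drd2*, the 4 regions did not overlap in any library.

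*Sp9* had lowest, median and highest levels of 10.9, 13.1 and 14.5 CPM in dorsal striatum, from 46 to 59 counts, and 3.23, 6.83 and 8.91 CPM in ventral striatum, from 12 to 47 counts. Hypothalamus libraries lay between 0.585 and 2.87 CPM and motor cortex libraries between 1.34 and 2.66 CPM, and these regions overlapped. Counting alone gives *Sp9* a coefficient of variation of 13.8% in dorsal and 19.3% in ventral striatum, beside 10.1% and 30.7% measured over the libraries.

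**Figure D1:**
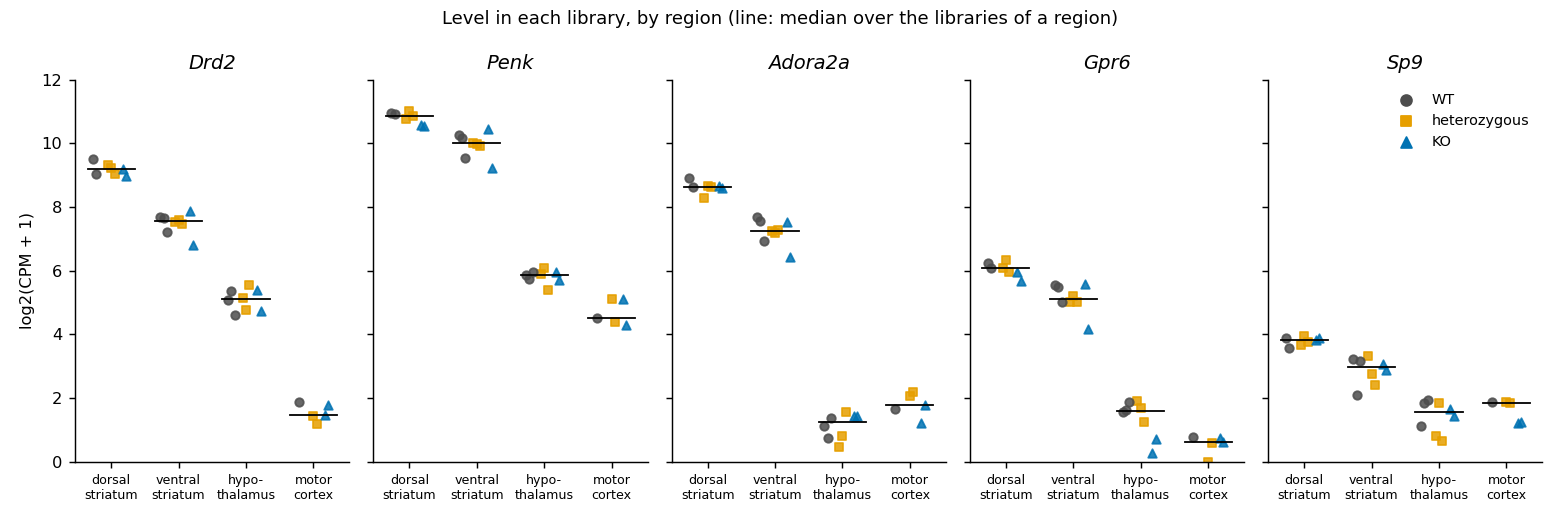
Level of each member in each of the 28 libraries, as log2(CPM + 1), by region, with colour and shape for genotype and a line at the median over the libraries of a region. In all panels every dorsal striatum library lies above every ventral striatum library, and the hypothalamus and motor cortex libraries overlap for *Adora2a*, *Gpr6* and *Sp9*.

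Levels of different genes can be compared only per length. In dorsal striatum the median CPM per kilobase of exon was 1136 for *Penk*, 228 for *Drd2*, 130.2 for *Adora2a*, 37.5 for *Gpr6* and 2.60 for *Sp9*, and no neighbours in this order overlapped. The order of the medians was the same in ventral striatum, with 626, 73.9, 49.8, 18.8 and 1.35 CPM per kilobase. There the libraries of *Drd2*, from 43.9 to 91.4, overlapped those of *Adora2a*, from 28.1 to 67.2. In hypothalamus only *Penk* and *Drd2* stood apart from the other members, with medians of 35.5 and 13.1 CPM per kilobase beside 1.12 for *Gpr6*, 0.453 for *Adora2a* and 0.385 for *Sp9*.

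Between dorsal and ventral striatum all 5 members were higher in dorsal striatum, beside 14.6% of the 14979 genes tested that were called higher there. The members were chosen with earlier results of these data known, so nothing is read from this count. Calls are at an adjusted p under 0.05 in edgeR's likelihood ratio test with Benjamini-Hochberg adjustment over all genes tested. This comparison averages the genotypes, and 7 dorsal and 8 ventral libraries enter it. Across all genes, 2185 were higher and 2158 lower in dorsal striatum. With library size alone as the scaling the split was 1269 higher and 3789 lower, and the 5 members were still called higher.

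*Drd2* had the largest difference of the 5, a log2 fold change of 1.69 ± 0.14 (SE), with an adjusted p of 2.00e-30 in edgeR. *Adora2a* followed with 1.40 ± 0.13 (edgeR adjusted p = 7.10e-24). *Gpr6* was higher by 0.90 ± 0.15 (edgeR adjusted p = 1.00e-08). The receptors thus covered a range of differences, and *Gpr6* lay below the other receptors.

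*Penk* rose by 0.81 ± 0.14 on the log2 scale from ventral to dorsal striatum (edgeR adjusted p = 1.55e-07), the smallest difference of the members. *Sp9* was higher by 0.96 ± 0.19 (edgeR adjusted p = 2.26e-06). Ranked by fold change over all 14979 genes, *Drd2* was number 160, *Adora2a* 276, *Sp9* 606, *Gpr6* 700 and *Penk* 817. Genes tested had a median of -0.01. In bulk tissue, fewer cells of a type and less RNA per cell cannot be told apart, and this holds for every difference given here.

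Libraries carry a replicate number, and 7 numbers have both a dorsal and a ventral striatum library. Every member was higher in the dorsal library for 7 of 7 numbers. The mean log2 difference was 1.67 ± 0.29 (SD, n = 7) for *Drd2*, 1.35 ± 0.39 for *Adora2a*, 0.92 ± 0.38 for *Gpr6*, 0.80 ± 0.36 for *Penk* and 1.04 ± 0.44 for *Sp9*. Since every dorsal library lay above every ventral one, any matching of libraries would give 7 of 7, so the direction adds nothing to the levels above. Whether a number stands for the same mouse in both regions is not known.

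The spread of the differences was uneven. For *Penk* the lowest value was 0.15 for number 7 and the highest 1.32 for number 8, both labelled KO. For *Drd2* the same numbers gave 1.32 and 2.16, again the lowest and the highest. *Drd2* exceeded *Penk* for 7 of 7 numbers, by 0.60 to 1.17 on the log2 scale. *Drd2* also exceeded *Gpr6* for 7 of 7 numbers, by 0.47 to 1.14, while *Penk* and *Gpr6* did not keep an order. These orders were seen in the values and were not tested.

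**Figure D2:**
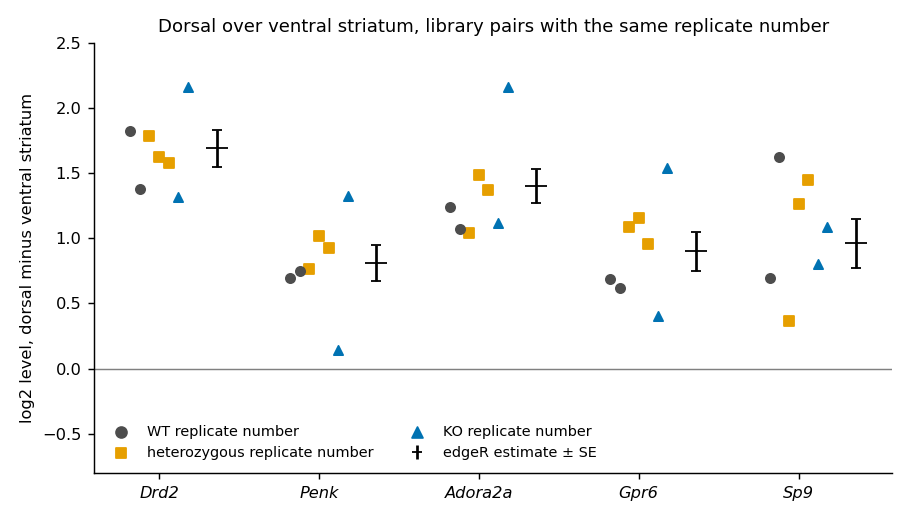
Log2 level in dorsal minus ventral striatum for the 7 replicate numbers found in both regions, by member, with colour and shape for genotype, beside the edgeR estimate with its SE over all striatal libraries. All 35 points lie above 0, and those of *Drd2* lie between 1.32 and 2.16.

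Other genes of striatal neurons differed in the same direction. Of 14 genes shared by both kinds of spiny neuron, 14 were higher in dorsal striatum, with a median log2 fold change of 1.27 and values from 0.53 for *Meis2* to 2.37 for *Rasd2*. *Rasd2* and *Pde10a* (2.09 ± 0.15) exceeded *Drd2*. The members' median was 0.96, so their difference was not larger than that of the shared genes. Of the 8 direct pathway genes, 6 were higher and 1 lower, beside 14.4% of all genes that were lower.

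Within the direct pathway list, *Drd1*, the D1 dopamine receptor, was higher in dorsal striatum by 1.12 ± 0.15 and *Chrm4*, the M4 muscarinic receptor, by 1.35 ± 0.11. *Tac1*, the substance P precursor, was higher by 0.77 ± 0.16. *Pdyn*, the dynorphin precursor, was lower by -1.26 ± 0.19. Of these peptide genes *Tac1* thus had the same direction as *Penk*, and *Pdyn* the opposite.

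*Pdyn* was higher in the ventral library for 7 of 7 numbers, and its median was 37.9 CPM in dorsal and 106 CPM in ventral striatum. The other indirect pathway genes on the list and measured were *Plxdc1* and *Upb1*, and 2 of 2 were higher in dorsal striatum, by 1.06 ± 0.18 and 0.93 ± 0.37. *Plxdc1* was not particular to the striatum, with a median of 13.1 CPM in dorsal striatum and in hypothalamus and 24.3 CPM in motor cortex.

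Of 17 genes that carry signals of the D2 and A2A receptors, 12 were higher and 3 lower in dorsal striatum, with a median of 0.73. The list shares 7 of its 17 genes with the 14 shared spiny neuron genes, so these counts are not separate. Among genes on this list alone, *Rgs7bp*, which anchors a G protein regulator to the membrane, was higher by 1.57 ± 0.12, and *Gnb5*, its G protein beta subunit, by 0.76 ± 0.09. *Gnao1*, the main G protein alpha subunit through which D2 receptors act in neurons, was higher by 0.73 ± 0.07. The alpha subunits *Gnai1* and *Gnai2*, which also couple to D2 receptors, were lower by -0.82 ± 0.08 and -0.50 ± 0.07. *Arrb2*, an arrestin, was lower by -0.55 ± 0.11.

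Of 8 genes that process, break down or receive enkephalin, 4 were higher and 1 lower in dorsal striatum. *Pcsk2*, a convertase that cuts the precursor, was higher by 1.15 ± 0.10, and *Mme*, neprilysin, which degrades enkephalins, by 1.91 ± 0.17. The delta opioid receptor gene *Oprd1* was higher by 1.40 ± 0.14, whereas the mu opioid receptor gene *Oprm1* was lower by -0.89 ± 0.14. *Cpe*, a carboxypeptidase, differed by -0.16 ± 0.07 and was not called (edgeR adjusted p = 0.0740). The receptors for the *Penk* product thus differed in opposite directions between the striatal regions.

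Of the 8 transcription factors around *Sp9* that were tested, 2 were higher and 1 lower in dorsal striatum. *Six3*, which acts with *Sp9* in the same lineage, was higher by 0.30 ± 0.11 and *Dlx6* by 0.46 ± 0.12. *Dlx1* was lower by -0.83 ± 0.22. The list's median was -0.03, so *Sp9* at 0.96 lay above it.

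Markers of other cells also moved between the striatal regions. Of 6 cortical excitatory neuron markers 4 were higher in dorsal striatum, and their summed level was 345 CPM in KO 7 and 107 CPM in WT 2 but between 8.34 and 17.2 CPM in the other 5 dorsal libraries. In the ventral libraries it was between 9.22 and 43.0 CPM. Without dorsal striatum WT 2 and KO 7, an alternative chosen after the data were seen, all 5 members were still called higher. Oligodendrocyte markers (0 of 6 called) and hypothalamic markers (0 of 8 called) did not pass the test, by edgeR.

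Of 6 choroid plexus markers, 1 was higher (*Ttr*) and 2 were lower (*Sostdc1* and *Prlr*). Their summed level was 2833 CPM in dorsal KO 8 and at most 62.9 CPM in the other dorsal libraries, and *Ttr* was higher in the dorsal library for only 3 of 7 numbers. Without dorsal KO 8 all 5 members were still called higher. Immediate early genes, which follow neuronal activity, were higher for 5 of 7 genes, among them *Arc* (1.66 ± 0.16) and *Egr1* (1.57 ± 0.20). Of 4 dopamine neuron markers 2 were lower in dorsal striatum, *Th* and *Ddc*, and of the 3 cholinergic interneuron markers 1 was lower, *Lhx8*. The part of any of these lists in the members' difference was not tested.

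Against the other regions the members were high in both striatal regions. All 5 members were higher in dorsal striatum than in hypothalamus, beside 25.5% of genes, and than in motor cortex, beside 21.4%. All 5 were also higher in ventral striatum than in hypothalamus, beside 19.7%, and than in motor cortex, beside 22.2%. Genes known as striatal markers were chosen, so nothing is read from these counts. Comparisons with the same region share its libraries.

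The sizes differed strongly between members. *Adora2a* was higher in dorsal striatum than in hypothalamus by 8.28 ± 0.24 on the log2 scale, number 2 of the 14979 genes ranked by fold change. *Drd2* was higher by 4.12 ± 0.14, *Gpr6* by 5.63 ± 0.30, *Penk* by 4.98 ± 0.15 and *Sp9* by 2.83 ± 0.23. The receptor with the largest level, *Drd2*, thus had the smallest striatal excess of the receptors against hypothalamus.

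Against motor cortex the order changed. *Drd2* was higher in dorsal striatum by 8.15 ± 0.28, number 4 of all genes, *Adora2a* by 7.38 ± 0.27, *Penk* by 6.16 ± 0.18 and *Sp9* by 2.59 ± 0.29. For *Gpr6*, with at most 3 counts in a motor cortex library, the ratio of pooled counts between dorsal striatum and motor cortex was 134, with an exact 95% interval from 72.78 to 280.2 that covers counting error only. The ratio of *Gpr6* between ventral striatum and motor cortex was 71.3 (38.65 to 149).

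Between hypothalamus and motor cortex 3 members were higher in hypothalamus, beside 25.4% of genes, and 1 was lower, beside 22.9%. *Drd2* was higher by 4.04 ± 0.28 (edgeR adjusted p = 3.38e-54) and *Penk* by 1.17 ± 0.18 (edgeR adjusted p = 9.19e-10). *Gpr6* was called higher (edgeR adjusted p = 0.0234) from 75 counts in hypothalamus and 10 in motor cortex, a ratio of 3.66 with an exact 95% interval from 1.883 to 7.94. *Adora2a* was lower in hypothalamus by -0.90 ± 0.33 (edgeR adjusted p = 0.0169) from 51 counts in each region, with fewer libraries in motor cortex. *Sp9* differed by -0.23 ± 0.33 and was not called (edgeR adjusted p = 0.579). By the quasi-likelihood test 2 members were called in this comparison, and *Gpr6* (adjusted p = 0.111) and *Adora2a* (0.107) were not. Leaving out 1 library at a time, *Gpr6* lay between 1.04 and 2.46 and lost its call in 2 of 12 settings, and *Adora2a* lay between -1.18 and -0.77 and lost it in 1 of 12.

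*Drd2* in the hypothalamus moved with genes of dopamine neurons. These neurons carry D2 receptors themselves, as autoreceptors. *Drd2* was at 32.7, 40.1 and 23.3 CPM in the WT libraries 1, 2 and 3, at 34.1, 26.2 and 45.8 CPM in the het libraries 4, 5 and 6, and at 41.2 and 25.8 CPM in the libraries labelled KO, 7 and 8. *Th*, tyrosine hydroxylase, had 36.8, 43.0 and 15.2 CPM in the same WT libraries, 41.5, 21.4 and 53.0 CPM in the het libraries and 55.7 and 21.5 CPM in those labelled KO. The same 3 libraries, WT 3, het 5 and KO 8, were lowest in both genes.

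Over the 8 libraries, log2 levels of *Drd2* and *Th* had a Pearson r of 0.968 and a Spearman rho of 0.952, and r was 0.946 over 6 libraries without those farthest from the median of *Th*. The dopamine transporter gene *Slc6a3*, between 2.61 CPM in het 5 and 136 CPM in het 6, gave r = 0.876 and rho = 0.929 with *Drd2*. *Ddc* gave 0.905 and 0.905, and *Slc18a2* gave 0.942 and 0.952. The values of a library share its scaling factor and its dissection, and 20 such pairs of a member and a marker were computed.

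The other members did not share this relation. *Penk* had r = -0.410 with *Th*, *Adora2a* -0.0663, *Gpr6* -0.348 and *Sp9* -0.537 over the same 8 libraries. With *Slc6a3*, *Ddc* and *Slc18a2*, r was between -0.592 and -0.498 for *Penk* and between -0.723 and -0.580 for *Sp9*. It was between -0.159 and 0.0534 for *Adora2a* and between -0.325 and -0.0412 for *Gpr6*. The summed level of the 4 dopamine neuron markers was between 72.4 CPM in WT 3 and 299 CPM in het 6, with all 4 detected in each hypothalamus library. Their part in the level of *Drd2* was not tested.

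**Figure D3:**
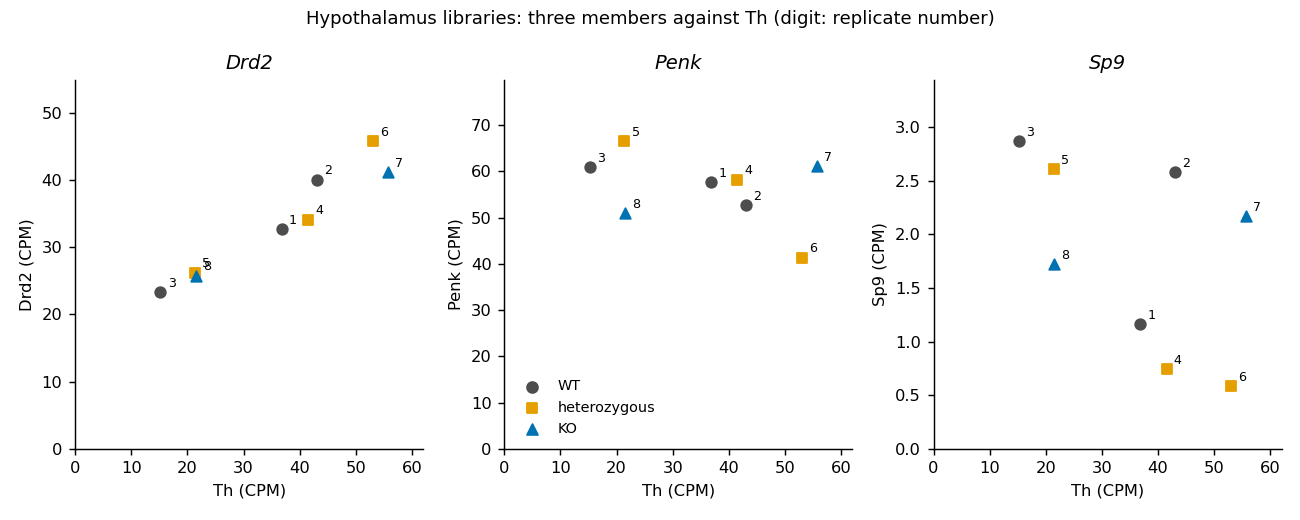
CPM of *Drd2*, *Penk* and *Sp9* against CPM of *Th* in the 8 hypothalamus libraries, 1 point per library with its replicate number and its genotype as colour and shape. *Drd2* lies between 23.3 and 45.8 CPM and increases with *Th*, while *Penk* and *Sp9* do not increase with it.

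Genotype was compared within each region for each pair of genotypes. In dorsal striatum, 0 of 5 members were called by edgeR between libraries labelled KO and WT, beside 0.387% of all genes. An unadjusted p under 0.05 was reached by 0 members, beside 1190 of the 14979 genes tested. None was called by the quasi-likelihood test or DESeq2 either. Het against WT also gave 0 of 5 members (0.0868% of genes) and KO against het 0 of 5 (0.461%). In each, 0 members had an unadjusted p under 0.05, beside 1191 and 1089 of all genes. The comparisons share libraries, since KO and het are set against the same WT libraries.

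*Drd2* in dorsal striatum was 735 and 523 CPM in the WT libraries, 633, 595 and 526 CPM in the het libraries and 579.9 and 502 CPM in those labelled KO. KO over WT gave a log2 fold change of -0.22 ± 0.26 (edgeR adjusted p = 0.900), and that of het over WT -0.11 ± 0.24. The groups overlapped, and WT 1 was the highest library. With library size alone the value of KO over WT was 0.09.

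*Adora2a* in dorsal striatum was 486 and 391 CPM in WT, 311, 404 and 399 CPM in het and 401 and 385 CPM in libraries labelled KO. KO over WT was -0.16 ± 0.25 (edgeR adjusted p = 0.930) and het over WT -0.24 ± 0.23. The groups overlapped, and the lowest library was het 4. With library size alone KO over WT was 0.14.

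*Gpr6* in dorsal striatum was 74.1 and 67.3 CPM in WT, 67.1, 79.7 and 61.3 CPM in het and 61.7 and 50.1 CPM in libraries labelled KO. Under TMM scaling both libraries labelled KO lay below both WT libraries. The share of all genes separated in this way is not given here, so nothing is read from it. KO over WT was -0.34 ± 0.27 (edgeR adjusted p = 0.825). With library size alone the groups overlapped, at 54.3 and 57.7 CPM in WT and 59.4 and 48.8 CPM under the KO label, and the value was -0.05. Het over WT was -0.03 ± 0.25.

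*Penk* in dorsal striatum was 1970.0 and 1949 CPM in WT, 1754, 2058 and 1857 CPM in het and 1531 and 1501 CPM in libraries labelled KO. Under TMM scaling both libraries labelled KO lay below all 5 other libraries, whereas with library size alone they lay above WT 1 (1475 and 1461 beside 1444 CPM). The share of all genes separated in this way is not given here, so nothing is read from it. KO over WT was -0.37 ± 0.27 (edgeR adjusted p = 0.791) and KO over het -0.32 ± 0.25, while het over WT was -0.05 ± 0.25. The value of KO over WT kept its sign when any of the 4 libraries was left out, between -0.39 and -0.36. It was not called in any of these settings, and with library size alone it was -0.08.

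*Sp9* in dorsal striatum was 13.8 and 10.9 CPM in WT, 11.6, 14.5 and 12.5 CPM in het and 13.1 and 13.9 CPM in libraries labelled KO. KO over WT was 0.14 ± 0.33 (edgeR adjusted p = 0.960), and 0.43 with library size alone. It was the only member of the 5 with a value above 0 under TMM scaling in dorsal striatum, and its groups overlapped.

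The members stood near the other spiny neuron genes in this comparison. In dorsal striatum their KO over WT median was -0.22 on the log2 scale, beside -0.25 for the 14 shared spiny neuron genes, -0.18 for the 8 direct pathway genes and -0.00 for all genes. In each of these lists 0 genes were called by edgeR. With library size alone the median of all genes moved to 0.28, and those of the members, the shared and the direct pathway genes to 0.09, 0.04 and 0.11. The members' median thus lay below that of all genes under both scalings. Its sign turned with the scaling, as did the values of *Drd2* and *Adora2a*, while those of *Penk*, *Gpr6* and *Sp9* kept theirs.

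Further lists gave no call on this side. In dorsal striatum KO against WT, 0 of 17 receptor signalling genes were called by edgeR (median -0.16), 0 of 8 enkephalin genes (-0.15), 0 of 8 tested transcription factors around *Sp9* (-0.08), 0 of 3 cholinergic markers (0.03) and 0 of 2 other indirect pathway genes (0.28). Lists of other cells did move. Oligodendrocyte markers were higher for 3 of 6 genes, and their summed level was 1833 and 1638 CPM in WT and 2475 and 3202 CPM in libraries labelled KO. Choroid plexus markers were higher for 6 of 6 genes, with a summed level of 2833 CPM in KO 8 and 3.91 CPM in KO 7 beside 5.89 CPM in WT 2 and less in WT 1.

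Cortical excitatory neuron markers had a median of 1.57 with 0 of 6 called by edgeR, and hypothalamic markers 0.40 with 0 of 8 called. Dopamine neuron markers had a median of 0.09 with 0 of 4 called, and 1 of 7 immediate early genes was lower, *Arc* at -1.13 ± 0.29. The 7 had a median of -0.92 with 1 above 0, and of -0.67 with library size alone. Whether the oligodendrocyte or choroid plexus RNA took a part in the members' values was not tested.

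In ventral striatum 0 of 5 members were called by edgeR for KO against WT (0.0801% of genes), for het against WT (0.0534%) and for KO against het (0.0467%). No member had an unadjusted p under 0.05 in any of these, beside 809, 674 and 515 of the 14979 genes tested. By the quasi-likelihood test or DESeq2, 0 members were called. Of the 14 shared spiny neuron genes 0 were called by edgeR for KO against WT, with a median of -0.11, and of the 8 direct pathway genes 0, with a median of 0.05. The members' median was -0.11.

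Libraries labelled KO in ventral striatum did not resemble each other. *Drd2* was 233 CPM in KO 7 and 112 CPM in KO 8, beside 207, 201 and 149 CPM in WT and 184, 193 and 176 CPM in het. *Penk* was 1385 CPM in KO 7 and 599 CPM in KO 8, beside 1216, 1157 and 750.0 CPM in WT and 1030.1, 1015 and 975 CPM in het. For both genes KO 7 was the highest and KO 8 the lowest of the 8 ventral libraries.

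*Gpr6* followed the same order in ventral striatum, with 46.6 CPM in KO 7 and 17.0 CPM in KO 8 beside 45.9, 43.6 and 31.6 CPM in WT and 31.3, 35.6 and 31.4 CPM in het. *Adora2a* was 184 CPM in KO 7 and 86.0 CPM in KO 8, beside 206, 186 and 122 CPM in WT and 151, 144 and 154 CPM in het, so that KO 8 was again lowest. *Sp9* was 7.33 and 6.33 CPM in libraries labelled KO, 8.36, 3.23 and 7.96 CPM in WT and 8.91, 5.76 and 4.31 CPM in het. *Sp9* thus did not separate KO 7 from KO 8.

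KO over WT in ventral striatum was -0.11 ± 0.25 for *Drd2*, -0.34 ± 0.23 for *Adora2a* (edgeR adjusted p = 0.942), -0.34 ± 0.26 for *Gpr6*, -0.07 ± 0.25 for *Penk* and 0.07 ± 0.35 for *Sp9*. These values rest on single libraries. The absence of calls in this region holds for the full fit and not for every fit with a library left out. Without KO 7, which keeps 1 library labelled KO, *Adora2a* was at -0.99 and *Gpr6* at -1.25. Without KO 8, *Drd2* was at 0.33, *Adora2a* at 0.11, *Gpr6* at 0.21 and *Penk* at 0.41. With WT 3 and KO 8 both left out, an alternative chosen after the data were seen that keeps 1 library labelled KO, *Drd2* was at 0.19, *Penk* at 0.22 and *Gpr6* at 0.06.

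**Figure D4:**
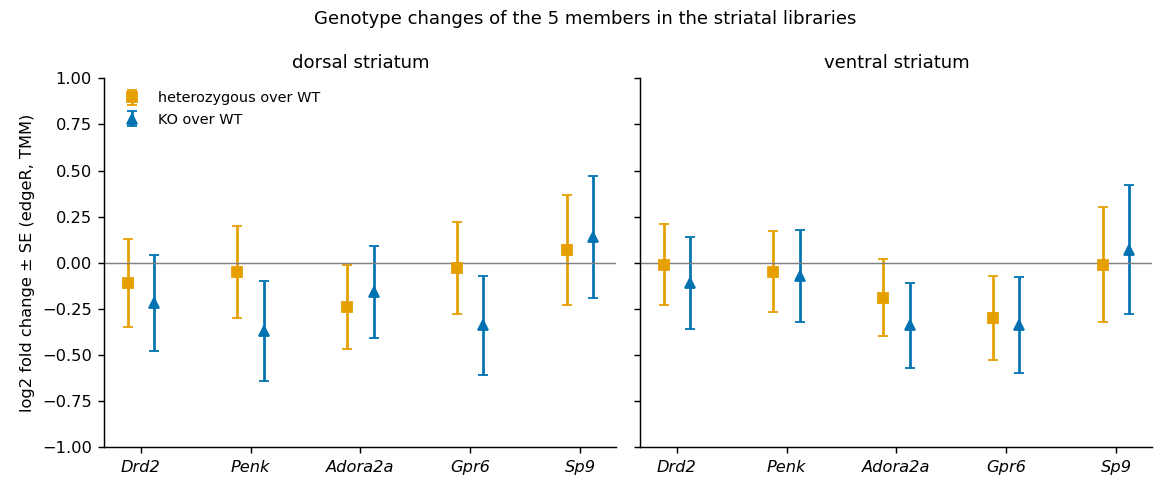
Log2 fold change with its SE (edgeR, TMM scaling) of het over WT and of libraries labelled KO over WT for the 5 members in dorsal and ventral striatum. Both contrasts use the same WT libraries, values lie between -0.37 and 0.14, and none was called.

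In hypothalamus 0 of 5 members were called by edgeR for KO against WT (0.167% of genes), het against WT (0.0935%) and KO against het (0.234%). None was called by the quasi-likelihood test or DESeq2. At an unadjusted p under 0.05 there was 1 member, *Gpr6*, for KO against WT and the same gene for KO against het, and 0 for het against WT. Of the 14979 genes tested, 900, 831 and 842 reached this in edgeR in these comparisons. *Drd2* differed by 0.06 ± 0.26 between KO and WT, *Penk* by -0.03 ± 0.26, *Adora2a* by 0.58 ± 0.54 and *Sp9* by -0.19 ± 0.48. For *Adora2a* the libraries labelled KO lay above the WT libraries but overlapped the het libraries.

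*Gpr6* in hypothalamus had 10, 12 and 15 counts in the WT libraries, 15, 12 and 7 in the het libraries and 1 and 3 in the libraries labelled KO. All 6 WT and het libraries thus lay above both libraries labelled KO. For how many of all genes this holds is not given here. The ratio of pooled counts of KO over WT was 0.193, with an exact 95% interval from 0.04999 to 0.537 for counting error only, and of KO over het 0.202 (0.05203 to 0.566). The unadjusted p of KO against WT was 4.28e-04 and the adjusted p 0.142 in edgeR, so the difference was not called. Other markers moved in these libraries too. Cortical excitatory neuron markers had a KO over WT median of 2.26 with 6 of 6 above 0 and 0 called by edgeR, and their summed level was 386 CPM in KO 8 and 41.6 CPM in KO 7 beside 42.0, 54.2 and 44.6 CPM in WT. *Lhx8* had 23, 3 and 30 counts in WT and 2 and 1 under the KO label and was called lower (edgeR adjusted p = 0.0132). Unlike *Gpr6* it was also low in het, with 2, 3 and 2 counts (het against WT, edgeR adjusted p = 0.00490), and did not differ between KO and het (edgeR adjusted p = 0.999). Against het, the cortical marker *Neurod6* was called higher under the KO label, by 2.91 ± 0.76 (edgeR adjusted p = 0.0435). The immediate early gene *Fos* was called lower, by -2.30 ± 0.48 (edgeR adjusted p = 0.00449). The part of these markers in the *Gpr6* difference was not tested. The difference between the change in dorsal striatum and that in hypothalamus was 1.96 ± 0.84 for *Gpr6* (edgeR adjusted p = 0.405).

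In motor cortex 0 of 5 members were called by edgeR for KO against WT (0.0334% of genes), het against WT (0.0134%) and KO against het (0.00668%). Unadjusted p under 0.05 was reached by 0 members in each, beside 649, 556 and 625 of the 14979 genes tested. By the quasi-likelihood test or DESeq2, 0 members were called. The comparisons with WT rest on a single WT library. KO over WT was -0.34 ± 0.64 for *Drd2*, from 11 counts in WT and 8 and 9 in libraries labelled KO. It was -0.23 ± 0.68 for *Adora2a*, 0.26 ± 0.38 for *Penk* and -0.96 ± 0.69 for *Sp9*, and all *Gpr6* libraries were at or under 3 counts.

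The difference of the KO over WT change between regions was tested directly. Between dorsal and ventral striatum 0 members differed by edgeR (0.00668% of genes), between dorsal striatum and hypothalamus 0 (0.154%) and between dorsal striatum and motor cortex 0 (0.127%). At an unadjusted p under 0.05 there were 0, 1 and 0 members, the 1 being *Gpr6*, beside 652, 1030 and 812 of the 14979 genes tested. These differences were not run with other tools. For *Penk* the change in dorsal striatum less that in ventral striatum was -0.30 ± 0.37, and for *Drd2* -0.11 ± 0.36.

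Across libraries of the same group, 4 of the 5 members were high or low together. Over the 15 striatal libraries with the mean of each group removed, log2 levels of *Drd2*, *Adora2a*, *Gpr6* and *Penk* had Pearson r between 0.848 (*Drd2* and *Adora2a*) and 0.951 (*Penk* and *Adora2a*), and rho between 0.721 and 0.850. Without the 2 libraries farthest from the median r was between 0.625 and 0.889. *Sp9* had r between -0.00544 and 0.0421 with the other members, at counts of 12 to 59 per library. The libraries share scaling, depth and dissection, and no p is given.

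With the mean of the z-scored members, r over the 15 libraries was between 0.69 (*Rasd2*) and 0.94 (*Foxp1* and *Gng7*) for the 14 shared spiny neuron genes. It was between 0.14 (*Isl1*) and 0.92 (*Drd1*) for the 8 direct pathway genes, with 0.53 for *Pdyn*. Of the other indirect pathway genes, *Plxdc1* had r = -0.01 and *Upb1* 0.87, and the member *Sp9* had 0.27. The genes most like that mean were *Tbc1d8* and *Dgkh* (both r = 0.963), *Chst15* and *Ppp1r7* (both 0.954) and *Fam171a1* (0.953). *Slc17a7* had r = -0.03 and *Ttr* -0.25. *Th* had r = -0.32 and *Chat* -0.24.

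Over all 28 libraries the genes most like each member were, by Pearson r of log2 CPM, *Pard3* (0.989), *Necab2* (0.989) and *Ryr3* (0.986) for *Drd2*. For *Adora2a* they were *Gng7* (0.994), *Sh3rf2* (0.989) and *Drd1* (0.988), and for *Gpr6* they were *Penk* (0.980), *Itgb1bp1* (0.975) and *Gnal* (0.974). For *Penk* they were *Serpina9* (0.988), *Ano2* (0.988) and *Alcam* (0.985), and for *Sp9* *Tmem94* (0.929), *Mpped2* (0.929) and *Runx1t1* (0.925). The libraries cluster by region, so these values mostly describe the region pattern. Of the 5 members only *Gpr6* had another member among its 3 most similar genes.

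Ratios within a library do not depend on the scaling between libraries. The mean log2 CPM of the members minus that of the 8 direct pathway genes was 2.18 ± 0.12 (SD, n = 7) in dorsal striatum, from 2.06 to 2.34, and 1.54 ± 0.20 (n = 8) in ventral striatum, from 1.32 to 1.89. The regions did not overlap in this ratio. Minus the shared spiny neuron genes it was -1.94 ± 0.07 in dorsal and -1.74 ± 0.15 in ventral striatum, so here the order was turned, and the libraries overlapped. Relative to the direct pathway genes as listed, of which *Pdyn* fell, the members were thus higher in dorsal striatum. Relative to shared genes they were not. The direct pathway list also holds *Sfxn1*, with medians of 72.3 CPM in dorsal striatum and 72.8 CPM in hypothalamus. Over same-number pairs *Sfxn1* differed by a mean of 0.30 and *Isl1* by 0.32. *Drd1* at 1.13 and *Chrm4* at 1.27 lay above *Gpr6* and *Penk* and below *Drd2* and *Adora2a*. The part of the list's make-up in this ratio was not tested.

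By genotype, the ratio to direct pathway genes in dorsal striatum was 2.12 ± 0.06 in WT (n = 2), 2.23 ± 0.15 in het (n = 3) and 2.15 ± 0.12 in libraries labelled KO (n = 2). In ventral striatum it was 1.64 ± 0.29 in WT (n = 3), 1.52 ± 0.15 in het (n = 3) and 1.40 ± 0.11 in libraries labelled KO (n = 2). These groups overlapped. Ventral KO 7 and KO 8, which differed by 1.00 on the log2 scale in the members' mean, were at 1.48 and 1.32.

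**Figure D5:**
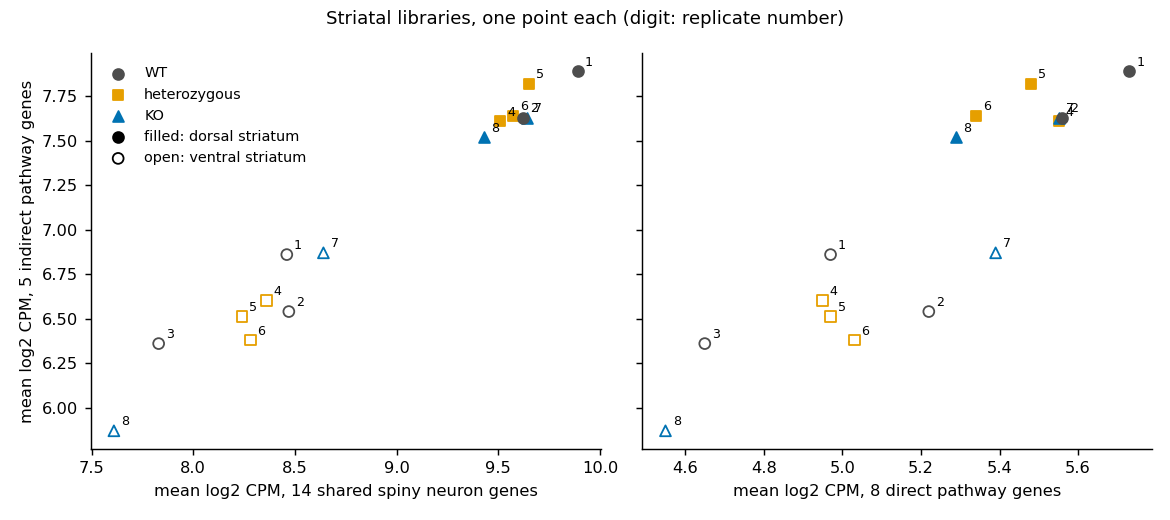
Mean log2 CPM of the 5 members against that of 14 shared spiny neuron genes (left) and 8 direct pathway genes (right) in the 15 striatal libraries, 1 point per library with its replicate number, filled for dorsal and open for ventral striatum. Dorsal libraries lie between 7.52 and 7.89 and ventral libraries between 5.87 and 6.87, with KO 7 highest and KO 8 lowest in ventral striatum.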

How the data were processed

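Reads were trimmed with Trimmomatic 0.32, aligned to GRCm38 with STAR 2.3.1z8 and counted per gene with HTSeq 0.6.1p1, and the raw count files were deposited by the authors. SAMtools 0.1.19 and Bowtie2 2.2.3 are also named in the submitters' processing notes. The files held between 3536802 and 5150280 counts on genes, and 45.78% to 55.22% of the tallied reads lay on no gene. The strand setting is not given in the sources used here. Summary entries of HTSeq were left out.

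Genes were kept at more than 1 CPM in at least 2 libraries. The p-values come from edgeR 4.0.16 (glmFit and glmLRT, TMM scaling, 12 group means) in R 4.3.3, with DESeq2 1.42.0 and limma 3.58.1 for alternatives. The code was tested on simulated data. No library was a copy of another by a chi-square check within groups. Members and lists were named genes, chosen with earlier results of these data known. Positions come from GENCODE M21.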

Additional observations from a re-analysis of the deposited data

Results flagged for a closer look

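The *Hdc* change of libraries labelled KO over WT was larger in dorsal striatum than in hypothalamus by 4.79 on the log2 scale, tested as an interaction (edgeR adjusted p = 2.50e-11). In dorsal striatum the change was a rise under the KO label, where the WT libraries had 3 and 0 counts. The outlier check used here needs groups of 4 or more libraries, so it was not run.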

How the results depend on the processing

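Of 30 region changes of members, 28 kept direction and call with edgeR's quasi-likelihood test and 30 with DESeq2. Library size alone kept 28, and RLE factors, other filters and fits of only the groups compared kept 30. With a replicate block 30 of 30 were the same, although the numbers did not clearly pair the samples: residual r over 34 same-number pairs was between -0.08 and 0.09, though the own number was the best match in 19 of 34, and in 5 of 7 between dorsal and ventral striatum. Between hypothalamus and motor cortex the quasi-likelihood test called 2 members where the likelihood ratio test called 4, and *Sp9* moved from -0.23 to 0.00 with library size alone.

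Of 20 KO over WT changes, library size alone turned 3: *Drd2* to 0.09 and *Adora2a* to 0.14 in dorsal striatum, and *Drd2* to -0.00 in hypothalamus. This scaling moved all genes alike, with their median going from -0.00 to 0.28 in dorsal striatum and from 0.01 to -0.07 in hypothalamus. In dorsal striatum, leaving out 1 library at a time moved *Drd2* between -0.44 and 0.05, *Adora2a* between -0.31 and 0.01 and *Sp9* between -0.03 and 0.31. The number of all genes called for KO over WT also changed strongly with the library left out. The shares of all genes given for these comparisons therefore hold for the full fit only.

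In ventral striatum the ranges were -0.73 to 0.33 for *Drd2*, -0.80 to 0.41 for *Penk*, -0.99 to 0.11 for *Adora2a*, -1.25 to 0.21 for *Gpr6* and -0.25 to 0.28 for *Sp9*. The lowest values of *Adora2a* and *Gpr6* there came when KO 7 was left out, which keeps 1 library labelled KO. The absence of calls in ventral striatum did not hold in every one of these settings. Leaving out WT 3 and KO 8, chosen after the data were seen, gave 0.19 for *Drd2*, 0.22 for *Penk* and 0.06 for *Gpr6*.

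In hypothalamus *Drd2* ranged from -0.31 to 0.36, *Penk* from -0.17 to 0.10, *Sp9* from -0.48 to 0.03, *Adora2a* from 0.30 to 0.90 and *Gpr6*, with 1 and 3 counts under the KO label, from -3.21 to -1.75, uncalled in each. In motor cortex *Penk* ranged from -0.23 to 0.62 and *Adora2a* from -0.67 to 0.17. Not run were a block for genotype, since genotypes share no number, the loss of the only WT motor cortex library, and other tools for differences between regions.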

Other observations

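Cholinergic interneurons of the striatum also carry *Drd2*, so their markers bear on its level. *Chat* differed by 0.37 ± 0.16 (edgeR adjusted p = 0.0555) and *Slc5a7* by 0.30 ± 0.13 (edgeR adjusted p = 0.0664) between dorsal and ventral striatum, and neither was called. *Lhx8* was lower in dorsal striatum by -1.34 ± 0.25 (edgeR adjusted p = 1.50e-06). With the members' mean over 15 striatal libraries, group means removed, *Lhx8* had r = -0.70. Its part in the level of *Drd2* was not tested. *Gpr52* and *Slc18a3* were not analysed here, and *Gsx2* was not kept by the filter.

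Groups held 1 to 3 libraries, which limits the genotype comparisons. Motor cortex had 1 WT library. *Hdc* counts were higher under the KO label than in WT outside the hypothalamus, and the data do not show why. Bulk tissue mixes cell types, and single libraries held cortical or choroid plexus markers. The meaning of the replicate numbers is not given in the sources used here. Counts give no protein level, receptor activity or splice form, and the intervals of pooled counts cover counting error only.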
